A study of Homo sapiens with 4 samples.

Results

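Expression of 7 genes of the angiotensin and endothelin systems, AGT, AGTR1, EDN1, EDNRA, EDNRB, ECE1 and MME, was examined in ATO-treated and negative control HCC cells. The genes were chosen by their role in these peptide systems and with their ratios in the same arrays already known, so the ratios of ATO over negative control are given as a description without a test. By the probe annotation of the array, 6 of the 7 genes were measured, by 13 of the 54675 probe sets, and 19775 genes in all had a probe set that names that gene alone. EDNRA was not analysed here, because the annotation used listed no probe set under its symbol. This is a limit of that annotation and does not show that the array lacks a probe set for EDNRA.

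The series held 4 profiles of the established human HCC lines Huh7 and Hep3B, 1 for each line and treatment, on Affymetrix Human Genome U133 Plus 2.0 arrays, where several short probes, together called a probe set, read 1 transcript. Cells of the ATO groups received arsenic trioxide (ATO) at 3 μM for 7 days, which the labels call a low dose. Negative control cells of each line received DMSO, the solvent. The profiles were made to find genes that differ with ATO, which the study examined as an agent that drives cancer stem cells to differentiate. Both lines are cultures without vessel or immune cells of a liver, and each stands for 1 tumor. With 1 profile per condition and line there was no error within a line, and an SD below is the spread of the log2 ratio between the 2 lines. In a bulk culture, fewer cells that express a gene and less RNA per cell cannot be told apart.

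Angiotensinogen, encoded by AGT, is secreted mainly by hepatocytes and is cut by renin and then by angiotensin-converting enzyme to angiotensin II, which constricts vessels and raises aldosterone through its type 1 receptor, AGTR1. Endothelin, encoded by EDN1, is made as a longer precursor that ECE1 cuts into a strong vasoconstrictor, which acts through the receptors EDNRA and EDNRB and, in the liver, contracts stellate cells around the sinusoids. MME, also called neprilysin, is a membrane peptidase that degrades natriuretic peptides, endothelin and angiotensins.

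The bases upstream of the start of the peptide genes EDN1 and AGT are shown because the level of EDN1 was high with ATO in both lines whereas that of AGT was close to its negative control. RefSeq (GRCh38.p14) gave the 250 bases before at least 1 annotated start for 6 of the 7 genes, with 3 such windows for EDN1 and 1 for AGT. The third EDN1 window lies at chr6:12290111-12290360 on the plus strand and was chosen because it is the only one of the 3 with a TATAAA match. The AGT window lies at chr1:230714123-230714372 on the minus strand. Both are written 5′ to 3′ along the gene, with matches to the searched motifs in capitals.
EDN1: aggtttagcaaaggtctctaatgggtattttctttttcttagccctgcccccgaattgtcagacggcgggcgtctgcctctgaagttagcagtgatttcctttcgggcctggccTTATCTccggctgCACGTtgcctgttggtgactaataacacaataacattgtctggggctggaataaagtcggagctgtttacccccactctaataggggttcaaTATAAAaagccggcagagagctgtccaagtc
AGT: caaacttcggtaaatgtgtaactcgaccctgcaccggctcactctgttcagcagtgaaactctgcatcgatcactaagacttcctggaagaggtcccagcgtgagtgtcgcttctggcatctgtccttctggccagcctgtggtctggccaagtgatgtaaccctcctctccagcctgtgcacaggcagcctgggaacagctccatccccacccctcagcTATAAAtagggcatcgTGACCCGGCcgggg

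Both strands were searched for short motifs. The TATA box was spelled TATAAA, the core of GATA factor sites AGATAA and the core of hypoxia response elements, which HIF binds, ACGTG. The consensus of AP-1 was spelled TGANTCA and the core of NRF2 sites TGACNNNGC. In the EDN1 window, TATAAA began 31 bases before the start, CACGT, the reverse complement of ACGTG, began 123 bases before it, and TTATCT, the reverse complement of AGATAA, began 136 bases before it. In the AGT window, TATAAA began 30 bases and TGACCCGGC 14 bases before the start. Of 34943 windows of the same length, 10.8% held TATAAA, 9.19% AGATAA, 18.5% ACGTG, 6.59% TGANTCA and 10.9% TGACNNNGC. The share with TATAAA is no background for the EDN1 window, which was chosen for that match. Of the EDN1 windows not shown, the first held CACGT 2 times and no other motif, and the second held none. TGANTCA was not found in either window shown, but AP-1 sites with other letters were not searched, so this does not show that a window lacks one. No capital letters overlap between motifs, and a match is only a description of these letters.

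EDN1 was high and AGTR1 low with ATO in both lines, by 3.07 to 3.82 times in the brightest probe set of each. Their dimmer probe sets differed by less, except that of AGTR1 in Hep3B, with 4.31 times. The other genes measured, AGT, ECE1, EDNRB and MME, did not pass the study's ratio limits, 1.5 and 0.67, in both lines. In Huh7, 1 of the 6 genes was above 1.5, beside 3.21% of all genes, and 1 was below 0.67, beside 3.25%. In Hep3B, 1 was above 1.5, beside 5.04% of all genes, and 2 were below 0.67, beside 4.02%. In both lines together, 1 gene was above (0.804% of all genes) and 1 below (0.587%). These shares are a background only, because the same ratios were known when the genes were chosen. In Huh7 the log2 ratios of the 6 genes had a median of -0.02 and those of all genes 0.01, and in Hep3B -0.11 and 0.04.

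**Figure D1:**
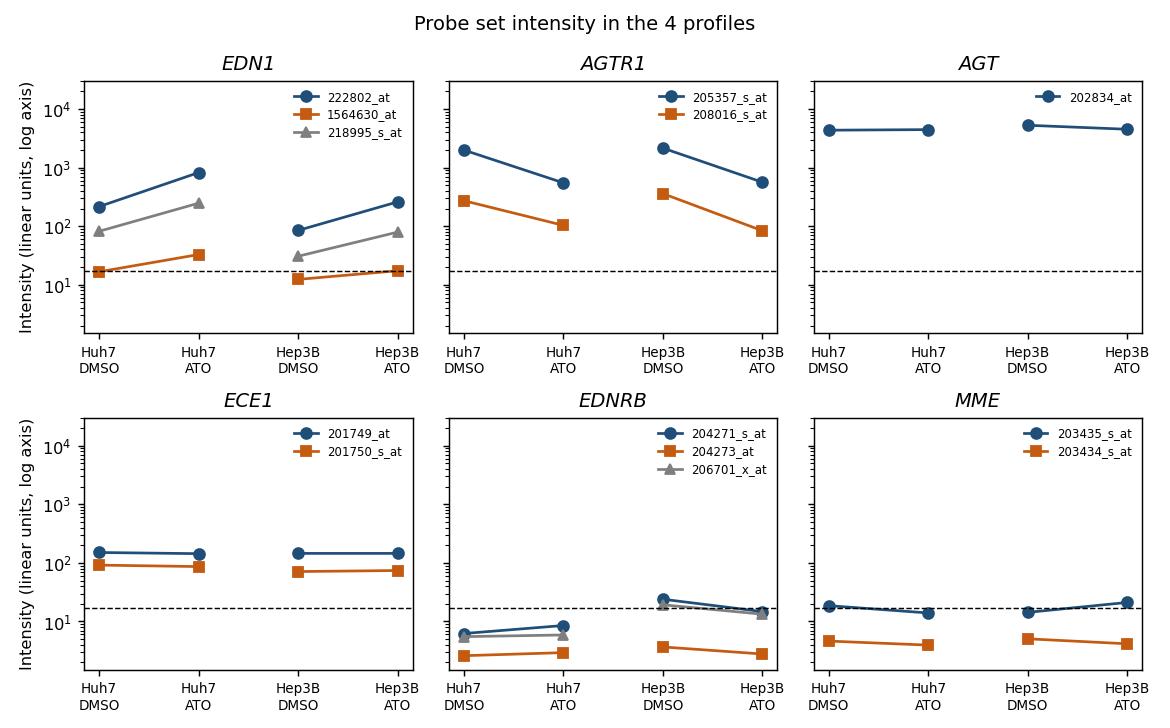
Deposited intensity (linear units, log axis) of every probe set of the 6 measured genes in the 4 profiles, with a line joining DMSO and ATO within a cell line and a dashed line at the median of all probe sets, 17.3. Each probe set of EDN1 is higher and each of AGTR1 lower with ATO in both lines, AGT lies near the top of the scale on all arrays, and EDNRB and MME lie around or below the dashed line.

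EDN1, the endothelin precursor, had its lowest level in Hep3B control cells and its highest in ATO-treated Huh7 cells. The intensity of its brightest probe set, 222802_at, was 216.0 in Huh7 control, 821.9 in Huh7 ATO, 84.6 in Hep3B control and 259.8 in Hep3B ATO. The ATO over control ratio was 3.81 in Huh7 and 3.07 in Hep3B. On the log2 scale this gave a mean of 1.77 ± 0.22 (SD over the 2 lines). Both ATO profiles were above both control profiles, although the order between lines was kept within each treatment, and Hep3B ATO was only 1.20 times Huh7 control. Among all 19775 genes, the ratio ranked 23rd from the highest in Huh7 and 64th in Hep3B. Ranked by the mean of the lines, EDN1 was the 18th.

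A second EDN1 probe set, 218995_s_at, read 81.8 in Huh7 control, 247.1 in Huh7 ATO, 30.7 in Hep3B control and 79.2 in Hep3B ATO. Its ratios were 3.02 and 2.58, again higher in Huh7. The third, 1564630_at, was at 16.7 and 32.8 in Huh7 and at 12.3 and 17.3 in Hep3B for control and ATO, respectively, with ratios of 1.97 and 1.41. Both of its control values were below the median of all probe sets, 17.3, so the size of its ratio is uncertain. All 3 probe sets had a ratio above 1 in both lines, and the 2 brighter ones passed 1.5 in both.

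The lines also differed in EDN1 without ATO. In control cells, the brightest probe set was 2.55 times as high in Huh7 as in Hep3B, and in ATO-treated cells 3.16 times. The second probe set gave 2.67 and 3.12 times. The gap between the lines was thus nearly as wide as that between treatments, and the highest and lowest of the 4 profiles differed by 9.71 times. With 1 profile each, a difference between the lines has no replicate check.

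AGT, the angiotensin precursor, was bright on all arrays and close to its control with ATO. Its single probe set, 202834_at, read 4346.9 in Huh7 control, 4446.5 in Huh7 ATO, 5273.8 in Hep3B control and 4508.1 in Hep3B ATO. The ratio was 1.02 in Huh7 and 0.855 in Hep3B, and the log2 ratios had a mean of -0.10 ± 0.18 (SD over the 2 lines). The highest value was that of Hep3B control, and the other 3 profiles lay close together. In Huh7 the ratio ran from 0.995 to 1.04 over the other settings, on either side of 1, so it has no settled direction there. Its ratio ranked 9099th from the highest of 19775 genes in Huh7 and 16310th in Hep3B.

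ECE1, the enzyme that cuts the endothelin precursor, had almost the same level in the 4 profiles. The brightest probe set, 201749_at, read 150.3 in Huh7 control, 143.6 in Huh7 ATO and 145.1 in both Hep3B profiles. Its ratios were 0.956 and 0.9998. The second probe set, 201750_s_at, read 91.6 and 86.4 in Huh7 and 71.1 and 74.0 in Hep3B for control and ATO, respectively, with ratios of 0.944 and 1.04. Neither probe set came near a ratio limit in either line. While the precursor transcript of EDN1 differed by at least 3.07 times between treatments in its brightest probe set, the mean log2 ratio of ECE1 was -0.03 ± 0.05 (SD over the 2 lines).

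MME, the peptide-degrading enzyme, was dim, and its brightest probe set went opposite ways in the lines. For 203435_s_at, the intensity was 18.6 in Huh7 control, 14.0 in Huh7 ATO, 14.3 in Hep3B control and 21.1 in Hep3B ATO. The ratios were 0.751 and 1.48, within the limits in both lines. The other probe set, 203434_s_at, was below the median of all probe sets on every array, with 4.62 and 3.95 in Huh7, 5.06 and 4.16 in Hep3B and ratios of 0.854 and 0.822. The probe sets thus disagreed in Hep3B, where one was higher and the other lower with ATO.

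AGTR1, the angiotensin II receptor, was bright in control cells of both lines and low in both ATO profiles. The intensity of 205357_s_at was 1990.3 in Huh7 control, 548.6 in Huh7 ATO, 2149.4 in Hep3B control and 562.4 in Hep3B ATO. The ratio was 0.276 in Huh7 and 0.262 in Hep3B, and the control was thus 3.63 and 3.82 times the ATO value. The log2 ratios averaged -1.90 ± 0.05 (SD over the 2 lines), a spread below the median SD of 0.17 over all genes. Both ATO values lay below both control values. The ratio ranked 8th from the lowest of 19775 genes in Huh7 and 23rd in Hep3B, and 3rd by the mean of the lines.

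The second AGTR1 probe set, 208016_s_at, read 272.0 in Huh7 control, 103.2 in Huh7 ATO, 359.4 in Hep3B control and 83.5 in Hep3B ATO. Its ratios, 0.379 and 0.232, were also below 0.67 in both lines, with a wider spread between the lines, a mean log2 ratio of -1.75 ± 0.50. Unlike EDN1, AGTR1 hardly differed between the lines in its brightest probe set. There, Huh7 had 0.926 times the Hep3B value in control cells and 0.976 times in ATO-treated cells. For 208016_s_at these values were 0.757 and 1.24, so the order of the lines was not kept.

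EDNRB, a receptor for endothelins, was dim and differed more between the lines than with ATO. The intensity of 204271_s_at was 6.23 in Huh7 control, 8.53 in Huh7 ATO, 24.0 in Hep3B control and 14.7 in Hep3B ATO, and only the Hep3B control value was above the median of all probe sets. The ratio was 1.37 in Huh7 and 0.615 in Hep3B. Thus Huh7 had 0.260 times the Hep3B value in control cells and 0.579 times in ATO-treated cells. The probe set 206701_x_at, which can bind related transcripts, read 5.51 and 5.88 in Huh7 and 19.2 and 13.3 in Hep3B, with ratios of 1.07 and 0.692. The third, 204273_at, stayed between 2.60 and 3.67 on all arrays, with ratios of 1.13 and 0.758. The probe sets had the same direction within each line, but at these levels the size of a ratio is uncertain, and only that of 204271_s_at in Hep3B passed a limit. That ratio ran up to 0.769 over the other settings, which is within the limits.

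**Figure D2:**
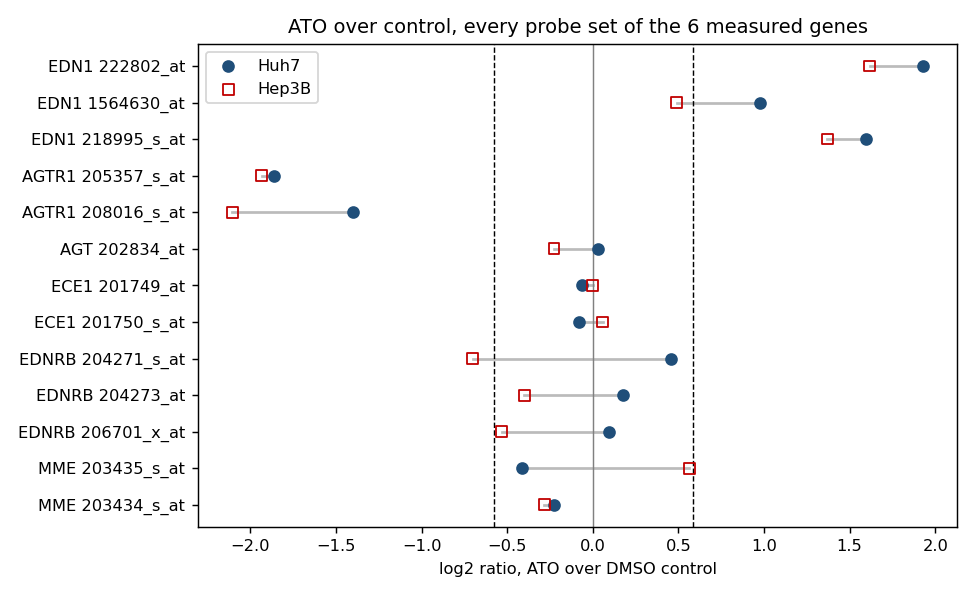
Log2 ratio of ATO over DMSO control for each of the 13 probe sets, with filled circles for Huh7, open squares for Hep3B, a grey bar between the lines and dashed lines at the ratio limits 1.5 and 0.67. The 2 brighter EDN1 probe sets lie above the limits and both AGTR1 probe sets below them in both lines, whereas the marks of EDNRB lie on either side of 0.

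Across probe sets, 4 of the 13 passed a limit in both lines, all of them of EDN1 or AGTR1. In the brightest probe sets, the log2 ratio of the lines differed by 1.16 in EDNRB and by 0.98 in MME, beside a median absolute difference of 0.24 over all genes. It differed by 0.31 in EDN1, 0.08 in AGTR1, 0.26 in AGT and 0.07 in ECE1. The larger values thus belonged to the pair of dim genes.

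**Figure D3:**
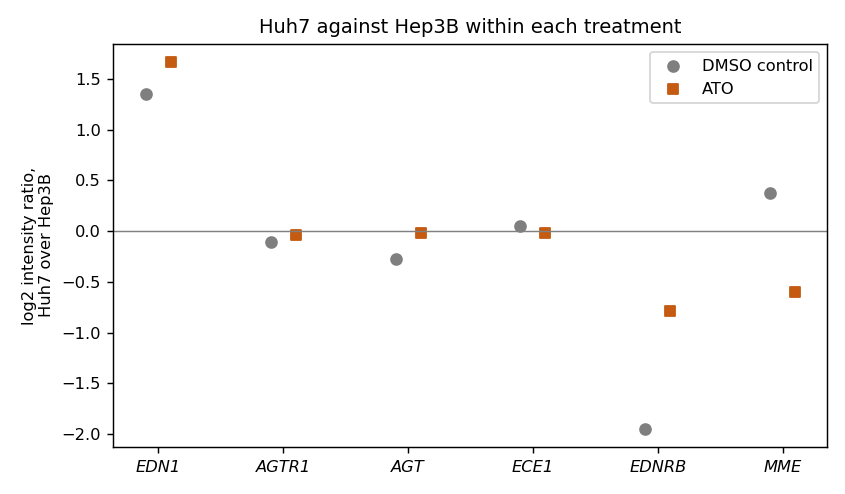
Log2 intensity ratio of Huh7 over Hep3B for the brightest probe set of each gene, with grey circles for DMSO control and orange squares for ATO and a line at 0. EDN1 is higher in Huh7 (1.35 in control, 1.66 with ATO), EDNRB is higher in Hep3B, and AGTR1, AGT and ECE1 lie near 0.

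Genes with the most similar profiles were found by the Euclidean distance over the 4 profiles between log2 intensities centred on each gene's mean, among 13322 genes with at least 1 value at or above the median probe set. For EDN1 these were LOXL2, a collagen-crosslinking enzyme (distance 0.21, ratios 4.40 and 2.89), MT2A, a metallothionein read from a probe set ending in _x_at (0.32, 3.00 and 2.71), and TNFRSF21, a death receptor (0.56, 2.55 and 2.13). For AGTR1 they were SOX5, a transcription factor (0.51, 0.259 and 0.410), ROBO2, an axon guidance receptor (0.64, 0.291 and 0.446), and MAF, a transcription factor (0.71, 0.542 and 0.312). In Huh7 ATO, SOX5 (17.0) and ROBO2 (13.8) were below the median probe set, so the size of their Huh7 ratios is uncertain. The neighbors of EDN1 were also higher in Huh7 than in Hep3B, which the distance uses. With 4 points, such a distance is a description.

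The genes with little difference had closer neighbors. For AGT these were HMGB1 (0.03), HDAC1 (0.04) and ZFR (0.04), and for ECE1 they were PPIA (0.02), ZBP1 (0.02) and TAGAP (0.03), with HMGB1 and PPIA read from probe sets ending in _x_at. EDNRB was nearest to CX3CL1 (0.13), SNAP91 (0.14) and SPRY2 (0.16), all with a ratio above 1 in Huh7 and below 1 in Hep3B. MME was nearest to NICN1 (0.08), CA5B (0.12) and KCP (0.14), all with the opposite pattern.

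**Figure D4:**
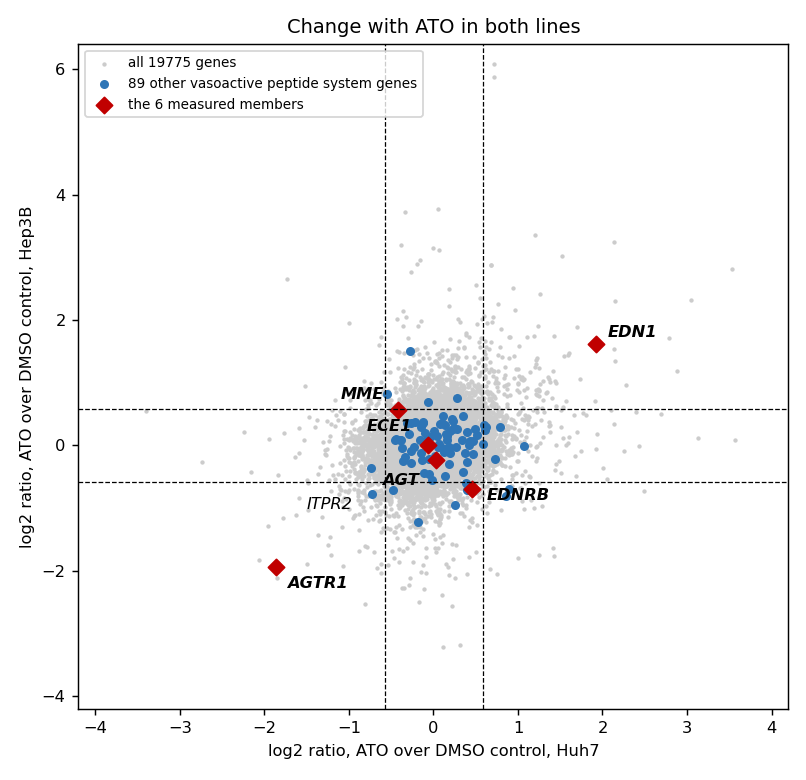
Log2 ratio of ATO over DMSO control, with Huh7 on the x axis and Hep3B on the y axis, for all 19775 genes in grey, 89 other genes of vasoactive peptide systems in blue and the 6 measured genes as red diamonds, with dashed lines at the ratio limits. EDN1 lies above the upper limit and AGTR1 below the lower limit in both lines, and ITPR2 is the blue point past the lower limit in both lines.

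A list of 96 other genes of vasoactive peptide systems held 89 measured genes, of which 59 reached the median probe set on at least 1 array. None of the 89 was above 1.5 in both lines, beside 0.804% of all genes, and 1 was below 0.67 in both, beside 0.587%. Past a limit in both lines were thus 1.12% of the 89 and 1.39% of all genes. With shares this small, a count of 0 in a short part of the list says little about its genes. In at least 1 line, 13 (14.6%) were above and 9 (10.1%) below, beside 7.44% and 6.68% of all genes. Some of the 13, but none of the 9, were below the median probe set on every array, where the size of a ratio is uncertain. The log2 ratios of the 89 had a median of 0.10 (Huh7) and 0.07 (Hep3B). The fit across all genes with limma, which used the lines as replicates, called 0% of all genes at an adjusted p of 0.05, and 9.54% had an unadjusted p under 0.05. Of the 89 genes, 0 passed the adjusted limit and 4 higher and 4 lower genes had an unadjusted p under 0.05. The smallest adjusted p over all genes was 0.506 by limma, so no gene below is called changed.

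In the list, 15 of 18 genes of the renin-angiotensin system other than AGT and AGTR1 were measured, and none passed a limit in both lines. ANPEP, an aminopeptidase that trims angiotensins, read 87.6 in Huh7 control, 77.1 in Huh7 ATO, 369.4 in Hep3B control and 158.9 in Hep3B ATO (ratios 0.880 and 0.430). PREP, a prolyl peptidase that cuts small peptides, had ratios of 0.958 and 1.61, and PRCP, a carboxypeptidase that inactivates angiotensin II, 1.17 and 1.30. ACE, the angiotensin-converting enzyme, was below the median probe set on every array, with ratios of 1.10 and 1.26.

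Of the endothelin genes beside EDN1, ECE1 and EDNRB, all 5 listed were measured and none passed a limit in both lines. EDN2, a second endothelin, was dim, with 18.4 and 14.0 in Huh7 control and ATO and 13.5 and 14.2 in Hep3B (ratios 0.762 and 1.06). EDN3, the third, was below the median probe set on every array, with ratios of 1.14 and 1.17. ECE2, which also cuts endothelin precursors, had ratios of 1.06 and 1.26, and ECEL1, a related peptidase, 1.10 and 0.958. EDN1 was thus the only one of the 3 endothelin peptide genes with an intensity above the median probe set in all 4 profiles.

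In other peptide hormones, 15 of 15 genes were measured, with no gene past a limit in both lines. NPPB, a natriuretic peptide that MME can degrade, had ratios of 2.11 and 0.989, KNG1, the bradykinin precursor made by hepatocytes, 1.20 and 0.517, and NTS, neurotensin, 0.599 and 0.782. Of their receptors, 20 of 21 were measured. NPR1, the natriuretic peptide receptor, had ratios of 1.53 and 1.19, and the receptor partners RAMP1 and RAMP2 1.31 and 1.16 and 1.38 and 1.05. Among processing enzymes, with 11 of 13 measured, the ratios of CPN1, a carboxypeptidase of plasma that acts on kinins, were 0.717 and 0.611, those of CPE, which trims hormone precursors, 0.987 and 0.679, and those of the convertase PCSK7 1.17 and 1.20.

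Among 24 genes of the signaling below these receptors, 23 were measured. ITPR2, a calcium channel opened by inositol trisphosphate, was the gene below 0.67 in both lines, with 44.1 in Huh7 control, 26.6 in Huh7 ATO, 115.0 in Hep3B control and 67.1 in Hep3B ATO (ratios 0.603 and 0.584). Its other 3 probe sets, all dimmer, had ratios of 0.847 and 1.15, 0.970 and 0.757, and 1.34 and 1.23, and the gene was within the limits when its probe sets were averaged or when an offset of 16 was added to the intensities. The ratios of PRKCD, a protein kinase, were 1.21 and 1.69, and those of RGS3, which damps receptor signaling, 1.72 and 1.22.

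In a liver, endothelin and its receptors are found in vessel and stellate cells, and markers of such cells were read in the same arrays. All 8 hepatocyte markers measured were above the median probe set on every array. Of 8 endothelial markers, VWF, CDH5, KDR, TIE1 and TEK were below it and CLDN5 above it on every array. The summed intensity of all 8 was 112 in Huh7 control, 137 in Huh7 ATO, 102 in Hep3B control and 100.1 in Hep3B ATO. Of 7 smooth muscle and stellate markers, ACTA2 and LRAT were below it on every array. The other way, 4 of the 7, DES, PDGFRB, RGS5 and COL1A1, were above it on every array, and the sum was between 197 and 208. Of 5 Kupffer cell markers, CD163, CLEC4F and PTPRC were below it and MARCO above it on every array, with sums from 64.5 to 74.2. The endothelial sum was higher with ATO in Huh7 and not in Hep3B. In Huh7 the difference lay mainly in CLDN5 (36.7 in control, 49.2 with ATO) and ESAM (23.4 and 35.2). The hepatocyte sum was 25782 in Huh7 control, 22204 in Huh7 ATO, 50665 in Hep3B control and 37301 in Hep3B ATO, lower with ATO in both lines. It is carried by a few bright genes, and 7 of the 8 markers were lower with ATO in Huh7, 6 in Hep3B and 5 in both. The exceptions were ALB, or albumin, with a ratio of 2.31 in Huh7, and FGB, a fibrinogen chain, and TTR, or transthyretin, with 2.82 and 1.16 in Hep3B. Spiked poly-A controls, bacterial transcripts that are labeled along with the sample RNA, were lower with ATO, with a median log2 ratio over 24 probe sets of -0.28 (Huh7) and -0.23 (Hep3B). The part of these markers and controls in the ratios of EDN1 and AGTR1 was not tested.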

How the data were processed

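RNA of Huh7 and Hep3B cells given ATO or DMSO was hybridized to Affymetrix U133 Plus 2.0 arrays. By their methods section, the authors used Robust Multi-array Average preprocessing, took logs and normalized between arrays in simpleaffy. What they deposited is a linear intensity for each probe set, from 2.24 to 14163.5, with column medians between 15.8 and 16.3. How the values left the log scale, and if 1 column stands for 1 array or for a mean, is not given in the sources used here. The labels gave a condition for all 4 columns, and the number of profiles limits the precision. No detection call was used, and a value below the median of all probe sets, 17.3, was called dim.

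The annotation gave 1 gene symbol for 41097 probe sets, several for 1801 and no entry for 11777. No symbol needed an update. A gene was read from its brightest probe set with 1 symbol, and ratios of ATO over control were taken within each line. The limits 1.5 and 0.67 are those of the study. The fit across lines took log2(intensity + 16) in limma 3.58.1 (R 4.3.3), with treatment and with cell line as a block, 1 residual degree of freedom and a prior of 1.81, and Benjamini-Hochberg adjustment at 0.05. The lines are no replicate cultures, so p-values measure only the spread between them. Files were read with the R package data.table (1.17.8) and with pandas 2.3.3 and numpy 2.4.6 in Python 3.11.15, and plots were drawn with matplotlib 3.10.9.

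The 7 genes and all gene and marker lists were chosen with earlier results of these data known. Named were the 7 genes, each listed gene past a limit in both lines, in each list up to 3 genes that reach the median probe set, by the size of their mean log2 ratio, and the 3 nearest profiles of each measured gene. ACE, EDN3, RGS2, PCSK5, BDKRB2 and CALCB fall outside this rule and were added once their values were known. Alternatives covered the geometric mean of all probe sets, leaving out those ending in _x_at, quantile normalization, median centring, an offset, dim genes left out, a line left out and other limma settings.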

Additional observations from a re-analysis of the deposited data

Results flagged for a closer look

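Several genes had ratios on opposite sides of 1 in Huh7 and Hep3B. The differences between the lines were not tested, since each line holds 1 profile per treatment. Among the genes of the angiotensin and endothelin systems, the log2 ratio in Huh7 minus that in Hep3B was 1.16 for EDNRB (ratios 1.37 and 0.615), -0.98 for MME (0.751 and 1.48) and 0.26 for AGT (1.02 and 0.855). EDNRB and MME were dim, and the AGT ratio in Huh7 lay on either side of 1 over the other settings. Among the other vasoactive peptide genes named above, the difference was 1.21 for KNG1 (1.20 and 0.517), 1.09 for NPPB (2.11 and 0.989), -0.75 for PREP (0.958 and 1.61), -0.47 for EDN2 (0.762 and 1.06) and 0.20 for ECEL1 (1.10 and 0.958). Those genes were named by their mean log2 ratio, in which opposite ratios cancel. Listed genes left out by that rule differed more than KNG1. These were RGS2 with 1.67 (1.82 and 0.571), PCSK5 with 1.59 (1.85 and 0.616), BDKRB2 with -1.37 (0.682 and 1.76) and CALCB with -1.79 (0.824 and 2.84). CALCB was below the median probe set on every array and BDKRB2 on 1. For AGT, NPPB, PREP, EDN2 and ECEL1, the ratio in 1 of the lines was within 0.958 to 1.06.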

How the results depend on the processing

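Of 60 ratios of the 6 measured genes under 5 alternatives, 56 shifted by less than that gene's own spread between the lines. None of the ratios past a limit turned in direction. Some of the 56 could not move, since no brightest probe set of these genes ends in _x_at and AGT has 1 probe set. The spread was wide in EDNRB (SD 0.82) and MME (SD 0.69), so for them a small shift by this measure is no sign of a stable ratio. The 4 that moved were those of EDN1 and AGTR1 in both lines with the geometric mean of all probe sets. Over the alternatives, the ratio of EDN1 was from 2.83 to 3.81 in Huh7 and from 2.23 to 3.07 in Hep3B. That of AGTR1 was from 0.268 to 0.323 and from 0.247 to 0.267. The ratios of ECE1 in Hep3B (0.983 to 1.02) and AGT in Huh7 (0.995 to 1.04) lay on either side of 1. Those of EDNRB were from 1.10 to 1.37 and from 0.606 to 0.769, so that its Hep3B ratio was within the limits in some settings, and those of MME from 0.731 to 0.866 and from 1.10 to 1.48.

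With only 1 line counted, 1 to 2 of the genes were below 0.67 (without Huh7, EDNRB was the second), and of the 89 other vasoactive peptide genes 4 to 9 were above 1.5 and 2 to 8 below 0.67. In both lines, 0 of the 89 were below 0.67 with the geometric mean and 0 with ratios of intensity + 16, where the main count was 1. Of all genes, 159 were above and 116 below in both lines. With intensity + 16 these counts were 96 and 66, with the geometric mean 74 genes were below, and in a single line 635 to 996 were above and 642 to 794 below. By limma, 0 of 19775 genes passed an adjusted p of 0.05, with 1886 at an unadjusted p under 0.05. It called 8 genes without the offset and 9 with an intensity trend, with EDN1 and AGTR1 among them in both settings, which is no independent support, since both were chosen with these ratios known. It called 0 with the arrays centred, with 1913 at an unadjusted p under 0.05, and 0 with no replicate block, with 334. The 2 lines are paired with their own control by the labels. The small number of profiles and the absence of a detection call limit all ratios, most of all those of dim probe sets.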
